A study of Homo sapiens with 6 samples.

Results

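The metallothionein genes MT1A, MT1E, MT1F, MT1G, MT1M, MT1X and MT2A, the metal-response factor MTF1 and the zinc exporter SLC30A1 were chosen by symbol from a table of 30267 genes. Of the 9 listed genes, 8 were found in the table and MT1A was not analysed here. RNA-seq was performed in SW839, an established renal cell carcinoma line, to see how its expression profile changed when RNF25 was knocked down. RNF25 is a RING-type E3 ubiquitin ligase. The 3 shRNF25 libraries came from cells with a lentiviral RNF25 shRNA, and the 3 shControl libraries from cells with the pLKO vector. All shRNF25 column names carry the label shRNF25B, and whether it stands for a single hairpin is not given in the sources used here. The treatment text names the RNF25 shRNA plasmid for every sample, controls included, so the groups rest on the sample titles and genotype labels. The series describes the 3 libraries of each group as biological triplicates without stating whether they came from separate infections. The p-values therefore measure the spread between these libraries.

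Metallothioneins are small cysteine-rich proteins that bind zinc, copper and cadmium, and most of their functional genes lie side by side on chromosome 16. MTF1 is a zinc-finger transcription factor that senses free zinc, binds metal response elements and switches on metallothionein genes and SLC30A1, which encodes the plasma membrane zinc exporter ZnT1. In kidney, metallothioneins hold zinc and toxic metals such as cadmium, and glucocorticoids and oxidative stress are also known to induce them.

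Reads on genes numbered from 18647460 to 19943154 in a library. Values below are normalized counts, that is reads divided by a size factor of the library, with no correction for gene length unless stated. RNF25 fell to 41.1% of control. Its normalized counts were 694, 534 and 536 in shControl and 214, 246 and 265 in shRNF25 (log2 fold change -1.27, SE 0.150, adjusted p = 0.000585 by limma with Benjamini-Hochberg adjustment). STK36, on the other strand, overlaps RNF25. Its normalized counts were 678, 779 and 928 in shControl and 1154, 1192 and 1204 in shRNF25. The study's methods name a stranded library kit, but whether reads were counted by strand is not given in the sources used here. Of the epithelial and renal markers, KRT8, KRT18, KRT19 and PAX8 were detected, with PAX8 at 127 in shControl and 94.0 in shRNF25. LHX1 was between 0 and 4.62, and PAX2 and CDH16 were not analysed here. Summed leukocyte markers ranged from 58.6 to 70.2 in shControl and 64.8 to 94.8 in shRNF25. For endothelial markers the sums were 496 to 698 and 495 to 647, and for fibroblast markers 1107 to 1291 and 865 to 1012. COL1A1 (mean 1177 in shControl) made up most of the fibroblast sum, with COL1A2, DCN, LUM and PDGFRB at 0.342 to 16.2. PECAM1 (mean 400 in shControl) made up most of the endothelial sum, with TEK at 4.95 and VWF at 9.29. VIM (355 to 832), KDR (24.5 to 84.5) and the leukocyte marker ITGAM (21.1 to 39.6) rose and CDH5 (125 to 5.89) fell. The part of these marker levels in the results below was not tested.

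Metallothionein mRNA was lower in RNF25-knockdown cells, with MT2A, which made up nearly all of it, at 25.0% of control. MT1X fell to 21.6% and MT1F to 26.5% from much lower levels, whereas MTF1 did not pass the test and SLC30A1 was 1.66-fold higher. Of the 9 listed genes, 6 passed the filter on low values, which asked for 10 or more normalized counts in 3 or more libraries. Among these 6, MT1F, MT1X and MT2A were lower past the criteria (adjusted p under 0.05 by limma, 1.5-fold or more), against 7.10% of all 16554 genes tested. SLC30A1 was higher past the same criteria, against 8.65% of all genes. The groups did not overlap for these 4 genes, and they did not overlap for 42.5% of all genes tested, so separation alone was common. In bulk RNA, fewer expressing cells and less RNA per cell cannot be told apart.

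MT2A, on chromosome 16 (GRCh38 chr16:56608199-56609497, plus strand), encodes the most widely expressed metallothionein. Its normalized counts were 13922, 18832 and 22013 in shControl replicates 1 to 3 and 4049, 4647 and 4986 in shRNF25 replicates 1 to 3. Every shRNF25 library lay far below the lowest control library. The mean fell from 18256 ± 4076 to 4561 ± 474 (SD, n = 3 each), which is 25.0% of control. The log2 fold change was -1.98 (SE 0.168, 95% interval -2.36 to -1.60, limma adjusted p = 0.00012). By level, MT2A ranked 103 in shControl and 678 in shRNF25 among all 30267 genes, and 133 genes tested had a lower fold change.

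MT1X (chr16:56682424-56684196, plus strand) is another inducible metallothionein at the far end of the cluster. It had normalized counts of 109, 70.8 and 159 in shControl and 26.4, 24.0 and 22.9 in shRNF25, from 69 to 147 and 24 to 29 reads. The shRNF25 libraries were close to each other and all below the controls, which spread more widely. The mean fell from 113 ± 44.0 to 24.4 ± 1.81 (SD, n = 3 each; log2 fold change -2.09, SE 0.283, limma adjusted p = 0.00124). MT1F (chr16:56657694-56660698, plus strand) had normalized counts of 271, 407 and 130 in shControl and 66.5, 75.7 and 71.5 in shRNF25. Again the groups did not overlap, although shControl replicate 3 lay much nearer to the knockdown libraries than the other controls did. The mean fell from 269 ± 139 to 71.2 ± 4.61 (SD, n = 3 each; log2 fold change -1.76, SE 0.347, limma adjusted p = 0.0074).

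**Figure D1:**
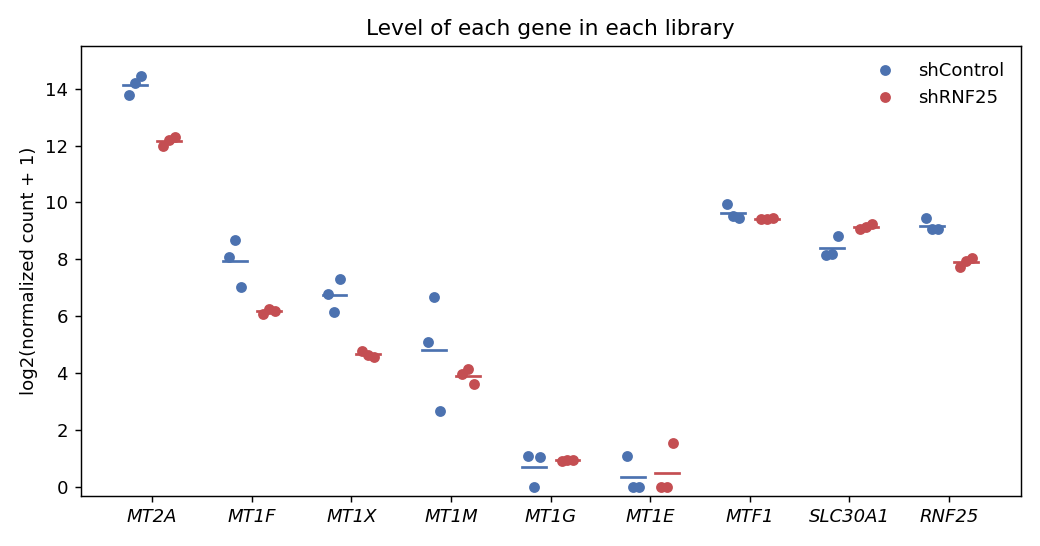
Levels of the members and RNF25, as log2(normalized count + 1), with a point for each of the 3 shControl and 3 shRNF25 libraries and bars at the means of these log2 values. MT2A, MT1X and MT1F lay lower in every shRNF25 library, SLC30A1 lay higher, and the groups overlapped for MT1M and MTF1.

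MT1M (chr16:56632233-56633986, plus strand) did not pass the test. Its normalized counts were 33.2, 103 and 5.40 in shControl and 14.6, 16.6 and 11.4 in shRNF25. The control libraries ran from the lowest to the highest value of all 6, so the groups overlapped. The log2 fold change was -0.91 (SE 0.810, 95% interval -2.73 to 0.92, limma adjusted p = 0.459). Leaving out shControl replicate 2 turned it to 0.03 (adjusted p = 0.982), and leaving out shControl replicate 3 gave -1.98 (adjusted p = 0.0173). edgeR on the whole reads gave -1.70 with an adjusted p of 0.142, and DESeq2 gave -1.71 with an adjusted p of 0.237. MT1G (chr16:56666731-56668065, minus strand) had at most 1 read in any library. MT1E (chr16:56625475-56627112, plus strand) had at most 2. Both stayed under the floor of 3 reads per library, a normalized count of 2.73 to 3.32, so that no difference was detectable at this depth and no fold is given. The floor covers counting error only.

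Per kilobase of annotated exon, MT2A stood at 18421 ± 4113 normalized counts in shControl, ahead of MT1F at 367 ± 189, MT1X at 137 ± 53.5 and MT1M at 56.8 ± 60.4 (SD, n = 3). Neighbours among the last 3 in this order overlapped in their control values. In shRNF25 the order of the metallothioneins was the same, with MT2A at 4602 ± 479, MT1F at 97.1 ± 6.28, MT1X at 29.7 ± 2.20 and MT1M at 17.1 ± 3.15, and here each mean differed from the next by more than their SDs. On the same scale MTF1 stood at 101 ± 19.7 and SLC30A1 at 62.5 ± 17.1 in shControl, and at 86.7 ± 1.21 and 104 ± 5.99 in shRNF25. Summed over the 6 metallothioneins in the table, normalized counts were 14338, 19412 and 22308 in shControl and 4158, 4764 and 5095 in shRNF25. MT2A made up 97.6% ± 0.939 of this sum in shControl and 97.6% ± 0.243 in shRNF25 (SD, n = 3). Metallothionein reads were 905 ± 233 RPM (scaled to the reads on genes) in shControl and 259 ± 22.7 RPM in shRNF25 (SD, n = 3).

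The metallothioneins did not rank the control libraries alike. MT1F and MT1M were highest in shControl replicate 2 and lowest in replicate 3, while MT2A and MT1X were highest in replicate 3. The ratio of MT2A to MT1F was 51.4, 46.2 and 170 in shControl and 60.9, 61.4 and 69.7 in shRNF25. Its highest and lowest values were thus both in control libraries. The coefficient of variation of MT1F was 51.6% in shControl, a spread exceeded by 4.98% of genes tested, and that of MT1M was 106%, exceeded by 0.290%. For comparison, the median over all genes tested was 18.2% in shControl and 6.70% in shRNF25.

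Metallothionein transcripts resemble one another, which matters for reads assigned to single genes. Of the 50-base words in each gene's transcripts, 3.02% of those of MT2A, 1.22% of MT1F, 9.87% of MT1M and 18.3% of MT1X occurred in other genes too. For MT1X, 273 of its 341 shared words were shared with AC026461.1, which overlaps it on the same strand. Among the tested metallothioneins, MT1X and MT1M thus shared the largest part of their words. For MT1X most of these lay in the overlapping AC026461.1, so its share overstates likeness to genes elsewhere. Misassignment of reads was not tested. MT2P1, an MT2A pseudogene, had 3, 11 and 7 reads in shControl and 0, 0 and 1 in shRNF25, too few to be tested.

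The upstream sequences of MT2A, MT1X and SLC30A1 are shown because MTF1 acts through metal response elements there. RefSeq windows of 250 bases before the transcription start were found for MT2A, MT1X, MTF1 and SLC30A1 (GRCh38.p14). The RefSeq start of MT2A lies inside the longer gene span given above, and so does that of MT1X, whereas that of SLC30A1 lies upstream of the span given for it below, so its window precedes another start. The core was searched as TGCACNC and TGCGCNC on both strands, and capitals mark its matches in 5′ to 3′ orientation of the gene.
MT2A (chr16:56608334-56608583, plus strand): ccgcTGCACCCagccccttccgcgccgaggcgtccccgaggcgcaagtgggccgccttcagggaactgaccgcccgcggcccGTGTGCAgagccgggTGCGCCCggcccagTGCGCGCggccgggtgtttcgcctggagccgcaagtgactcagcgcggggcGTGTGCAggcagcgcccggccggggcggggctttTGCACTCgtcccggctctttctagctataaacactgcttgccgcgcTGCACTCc
MT1X (chr16:56682220-56682469, plus strand): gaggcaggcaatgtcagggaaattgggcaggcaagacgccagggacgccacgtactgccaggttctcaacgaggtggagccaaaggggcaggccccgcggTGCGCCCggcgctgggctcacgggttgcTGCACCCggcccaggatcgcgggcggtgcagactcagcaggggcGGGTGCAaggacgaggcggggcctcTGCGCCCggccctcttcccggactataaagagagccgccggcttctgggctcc
SLC30A1 (chr1:211579162-211579411, minus strand): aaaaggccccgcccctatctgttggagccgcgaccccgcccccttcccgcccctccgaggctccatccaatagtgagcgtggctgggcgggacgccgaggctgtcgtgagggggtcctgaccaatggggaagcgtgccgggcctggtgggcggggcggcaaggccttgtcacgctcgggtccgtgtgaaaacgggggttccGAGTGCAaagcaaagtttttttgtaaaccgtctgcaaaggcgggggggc
The MT2A window held 7 core matches, a number reached by 0.0313% of 35116 RefSeq promoter windows. The MT1X window held 4, reached by 0.370%. SLC30A1 had 1 match, as 24.8% of windows had at least 1, and the MTF1 and RNF25 windows had none. The antioxidant response element, searched as TGACNNNGC on both strands, matched once each in MT2A, MT1X and SLC30A1 and was found in 10.9% of all windows. The hypoxia response core ACGTG, on both strands, matched once in MT1X and in 18.5% of all windows. MT2A and MT1X fell and SLC30A1 rose, but no window was found for MT1F, which also fell. A link between the number of matches and the fold change was not tested. A match of letters is not evidence that a factor was bound.

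**Figure D2:**
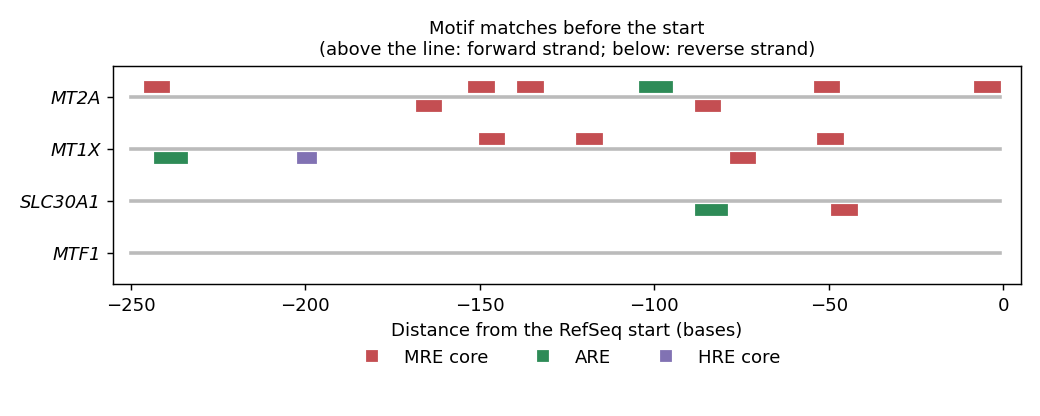
Positions of matches to the metal response element core, the antioxidant response element and the hypoxia response core in the 250 bases before each RefSeq start, in bases from the start. MT2A held 7 metal response element matches, MT1X 4 and SLC30A1 1.

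MTF1 (chr1:37809567-37859620, minus strand), the factor itself, did not pass the test. Its normalized counts were 986, 739 and 695 in shControl and 682, 690 and 702 in shRNF25. Only shControl replicate 1 stood apart, and the groups overlapped. The log2 fold change was -0.21 (SE 0.143, 95% interval -0.53 to 0.12, limma adjusted p = 0.34), and -0.05 without shControl replicate 1. The activity of the MTF1 protein was not measured.

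SLC30A1 (chr1:211571568-211578742, minus strand), which exports zinc from the cytosol, moved the other way from the metallothioneins. It had normalized counts of 286, 290 and 450 in shControl and 534, 568 and 600 in shRNF25. All shRNF25 libraries lay above the highest control, shControl replicate 3. The mean rose from 342 ± 93.4 to 567 ± 32.8 (SD, n = 3 each; log2 fold change 0.76, SE 0.180, 95% interval 0.35 to 1.16, limma adjusted p = 0.0169). The call was lost without shControl replicate 2 and without any 1 of the 3 shRNF25 libraries, with adjusted p from 0.060 to 0.0793. For single genes with groups that did not overlap, an exact two-sided permutation test of 3 against 3 libraries gave p = 0.1. This is the smallest p it allows, so the calls rest on limma's pooled estimate of the spread. That estimate takes the same spread in both groups, whereas the median coefficient of variation was 18.2% in shControl and 6.70% in shRNF25.

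**Figure D3:**
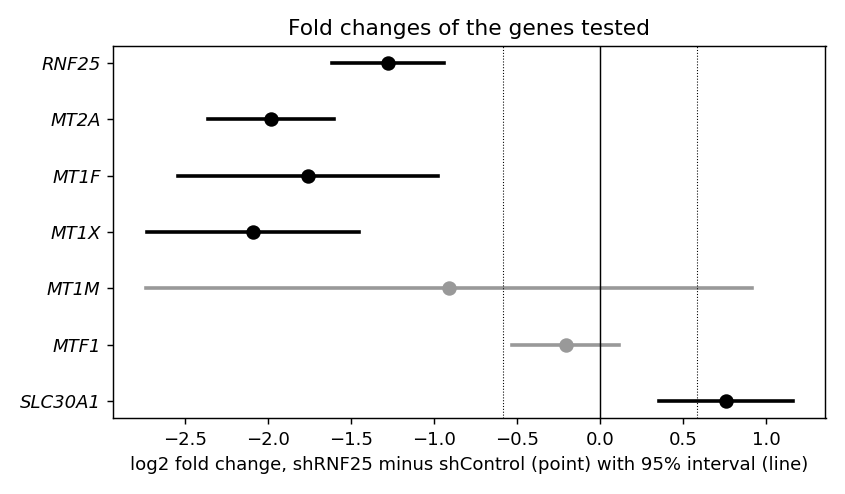
Log2 fold changes of RNF25 and the tested members, shRNF25 against shControl, with 95% intervals from limma. MT2A, MT1X and MT1F lay near -2, the interval of MT1M crossed 0, and SLC30A1 was at 0.76.

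The metallothionein genes in the table span 76.0 kb of chromosome 16, and its members were set beside the genes around them. Of 12 protein-coding genes within 500 kb of the cluster, 8 were tested and limma called 0 past the criteria. Over all genes tested, 7.10% were lower and 8.65% higher past the criteria, so 0 among 8 genes was near the background share. At an unadjusted limma p below 0.05 there were 2, for which no share over all genes is given here, and edgeR and DESeq2 called 0. The median log2 fold change of these neighbours was -0.10, against -0.01 over all genes tested. Without shControl replicate 2, 1 neighbour was called higher. The nearest tested neighbour on the MT1X side, NUP93, a nuclear pore protein named after its values were seen, had a log2 fold change of -0.29 (limma adjusted p = 0.0999). BBS2, the nearest on the MT2A side, was at 0.18 (limma adjusted p = 0.334). The largest change among the neighbours was that of NLRC5, at 0.51 (limma adjusted p = 0.0635). Both were also named after their values were seen.

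**Figure D4:**
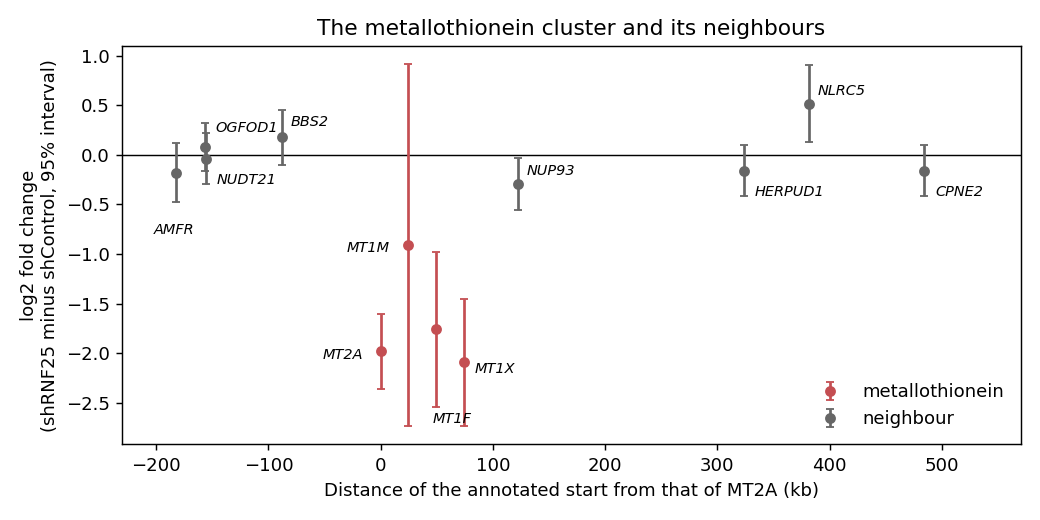
Log2 fold change with 95% interval of tested genes against the distance in kb of each annotated start from that of MT2A. MT2A, MT1F and MT1X lay between -2.09 and -1.76, the 8 neighbours lay between -0.29 and 0.51, and the interval of MT1M spanned both.

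Other genes of metal handling moved less uniformly. Of 14 further metallothionein genes and pseudogenes, 4 were in the table and 0 passed the filter. Of 6 tested zinc exporters other than SLC30A1, limma, edgeR and DESeq2 each called 0, with 1 at an unadjusted p below 0.05 by limma, and the median log2 fold change was 0.03. Among 11 tested zinc importers, 3 fell and 1 rose, against 7.10% and 8.65% of all genes tested, so that the single rise was near the background share. SLC39A10 decreased from 868 ± 361 to 437 ± 23.5 (log2 fold change -0.91, adjusted p = 0.0323). SLC39A8, which also carries cadmium and manganese, decreased from 770 ± 78.1 to 442 ± 28.9 (-0.80, adjusted p = 0.00231). SLC39A1 increased from 62.2 ± 18.9 to 113 ± 7.33 (0.90, adjusted p = 0.0243), and the third gene that fell, SLC39A4, named after its value was seen, had a log2 fold change of -0.68. All errors in this list are SDs over 3 libraries and all p-values are limma's. SLC39A10 and SLC39A1 each lost the call without shControl replicate 2 and without any 1 shRNF25 library, with adjusted p from 0.0813 to 0.112 and from 0.0572 to 0.107. SLC39A4 lost it without shRNF25 replicate 1 (adjusted p = 0.0588), which left 1 importer lower, and it fell under 1.5-fold without shControl replicate 1 (log2 fold change -0.57).

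Of 8 further genes linked to MTF1, 3 fell and 0 rose, against 7.10% lower and 8.65% higher over all genes tested. The median log2 fold change was -0.48, against -0.01 over all genes tested. NDRG1, a stress-responsive gene also induced by hypoxia, fell from 19147 ± 4575 to 2819 ± 572 (SD, n = 3; log2 fold change -2.76). PGF, an angiogenic growth factor, fell from 177 ± 39.6 to 66.3 ± 11.4 (SD, n = 3; log2 fold change -1.39). The remaining gene that fell was SLC39A10, an importer that MTF1 is known to repress and that is counted in both lists.

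Of 13 tested iron handling genes, 5 fell, 1 rose and 7 did not pass, with a median log2 fold change of -0.59, against 7.10% lower and 8.65% higher over all genes tested. SLC40A1, the iron exporter ferroportin, rose from 8.87 ± 4.28 to 48.2 ± 10.8 (SD, n = 3; log2 fold change 2.40, limma adjusted p = 0.00242). SLC25A37, a mitochondrial iron importer, fell from 2201 ± 103 to 1225 ± 73.0 (log2 fold change -0.85), and FTL, the ferritin light chain, from 8732 ± 1008 to 5381 ± 567 (log2 fold change -0.70). TFRC, SLC11A2 and ACO1, named after their values were seen, had log2 fold changes of -0.59, -0.65 and -0.68. TFRC was just past 1.5-fold and fell under it with edgeR (-0.55), DESeq2 (-0.57), both other scalings (-0.52 and -0.39) and without shControl replicate 1, shRNF25 replicate 1 or shRNF25 replicate 2 (-0.57 in each case). SLC11A2 fell under it with quantile normalization (-0.56) and without shRNF25 replicate 2 (-0.58). FTL fell under it with quantile normalization (-0.52). Without shRNF25 replicate 2 the criteria left 3 lower, with quantile normalization 2 lower, and without shControl replicate 3 there were 2 higher. Of the iron genes, edgeR called 4 lower and DESeq2 called 6 lower, each with 1 higher. Of 12 tested copper genes, limma called 0, with 3 at an unadjusted p below 0.05, whereas edgeR and DESeq2 each called 1 lower. Leaving out shControl replicate 1 or shRNF25 replicate 2 also gave 1 lower, and leaving out shControl replicate 3 gave 2. The median was -0.04.

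Other known routes of metallothionein induction were described in the same way. Of 8 tested glucocorticoid-receptor targets, SGK1 and ERRFI1 fell, with log2 fold changes of -0.93 and -1.30, and CRISPLD2 rose, with 0.60. Over all genes tested, 7.10% fell and 8.65% rose past the criteria, so the single rise was near the background share. SGK1 and ERRFI1 encode a stress kinase and a feedback inhibitor of EGFR. CRISPLD2 lost its call without shControl replicate 2 (adjusted p = 0.0503) and without any 1 shRNF25 library (0.0779 to 0.12), and it fell under 1.5-fold with a pseudocount of 5 (log2 fold change 0.57) and with quantile normalization (0.52). The median was -0.17. Of 12 tested heat-shock genes that metals can induce, 1 fell and 0 rose, with a median of -0.10, and the single fall was near the 7.10% of all genes tested. This was HSPB1, a small heat-shock protein, which dropped from 8375 ± 68.2 to 3760 ± 256 (SD, n = 3; log2 fold change -1.16, limma adjusted p = 0.000125). No list was tested as a set, and some genes belong to more than one.

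**Figure D5:**
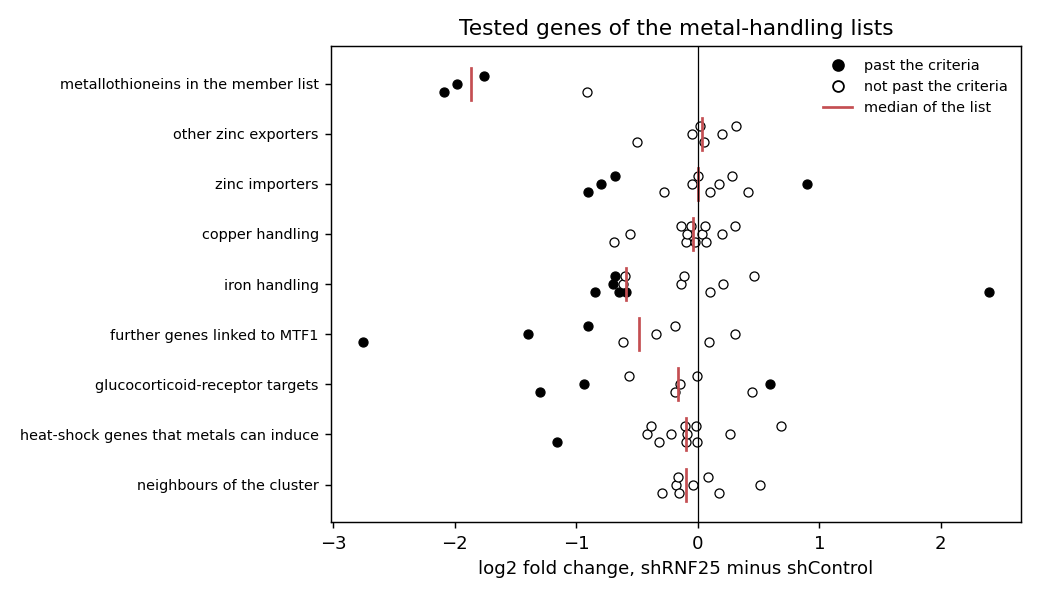
Log2 fold changes (shRNF25 minus shControl) of tested genes by list, filled where past the criteria and open otherwise, with a line at each list's median. The medians of the zinc exporters and copper genes were 0.03 and -0.04 and that of the iron list -0.59, with copper genes spread from -0.69 to 0.30 and zinc exporters from -0.50 to 0.32.

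Genes whose pattern was most like the metallothioneins were sought over the 6 libraries among 11335 genes with a mean normalized count of at least 100. The measure was Pearson's r with the mean log2 value of the 4 tested metallothioneins. The highest were RPL4 (0.997), IQGAP3 (0.995), NRSN2 (0.994), NOG (0.994) and SVIL (0.994), and among the lowest were KITLG (-0.998), AC026412.1 (-0.998), TXNIP (-0.997) and CDYL2 (-0.995). This mean was 8.43, 8.93 and 7.86 in shControl, so among the controls it ranked the libraries as MT1F and MT1M did and not as MT2A and MT1X did. All 6 points share the group difference, and 809 candidates reached r of at least 0.9, so a high r was common. Pearson's r also leaves out the size of a change. The log2 fold changes of RPL4, IQGAP3, NRSN2, NOG and SVIL were -0.33, -0.58, -0.37, -0.66 and -0.50, and only NOG passed the criteria.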

How the data were processed

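RNA-seq of 6 SW839 libraries (3 shRNF25, 3 shControl) was analysed. The values deposited by the authors are normalized counts, a signal that can be fractional. The submitters' processing notes name fastp, HISAT2, HTSeq and GRCh38, and the study's methods name DESeq2. Whole reads were recovered from the deposited values for 100% of values (tolerance 0.01 reads, largest deviation 0.00013), with 18647460 to 19943154 reads on genes per library, and 0 value columns were unmapped.

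log2(normalized count + 1) was fitted with limma 3.58.1 (R 4.3.3, trend) on genes with at least 10 in at least 3 libraries, with Benjamini-Hochberg adjustment over all 16554 genes, and fold changes are on that scale. Genes past the criteria had an adjusted p under 0.05 and changed 1.5-fold or more. Count tests on the whole reads called 1133 genes lower and 1525 higher with edgeR 4.0.16, and DESeq2 1.42.0 was a further alternative. Other pseudocounts, filters, scalings, fold criteria, a replicate block and leaving out each library were also tried. The fitting was tested on simulated data. Promoter windows came from RefSeq and transcripts from GENCODE, and a planned comparison of the proteins was not made.

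Named were RNF25, all members, up to 3 genes past the criteria per list by absolute log2 fold change, and the 5 most and 5 least correlated genes, and some items that these rules and lists name are not reported here. The members and lists were chosen with earlier results of these data known.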

Additional observations from a re-analysis of the deposited data

How the results depend on the processing

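Under the 15 alternatives, log2 fold changes lay between -1.34 and -1.15 for RNF25, -2.16 to -1.75 for MT2A, -2.39 to -1.81 for MT1X and -2.21 to -1.38 for MT1F, all past an adjusted p of 0.05, the highest being 0.0404 for MT1F. MTF1 ranged from -0.30 to -0.05 and did not pass. MT1M, which the filter of at least 50 left untested, ranged from -1.98 to 0.03 over 14 alternatives, with 0.0267 without shControl replicate 2. SLC30A1 ranged from 0.65 to 0.97 and lost its call in 4 alternatives. The number of members called higher was 0 with a fold change of at least 2 and 0 to 1 when each library was left out. In the further gene lists (metal handling, genes linked to MTF1, glucocorticoid-receptor targets and heat-shock genes), 13 genes were lower and 3 higher, 4 and 1 with a fold change of at least 2, and 1 to 4 higher when each library was left out. Among the neighbours, 0 to 1 was called higher when each library was left out. Over all genes, 1432 were higher, 898 with a filter of at least 50, and as few as 748 without shRNF25 replicate 1.

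Same-numbered libraries did not deviate together (correlations -0.0638, -0.0874 and 0.0471), so the numbers were not taken to pair samples. With the replicate block, 3 members were lower and 1 higher, as without it, RNF25 was at -1.27, the further lists had 14 lower and 2 higher, CRISPLD2 lost its call (adjusted p = 0.059), and 1193 genes were lower and 1398 higher over all genes. MT1E and MT1G had too few reads for a comparison, and whether depth or low expression lay behind this was not tested.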
